A study of Mus musculus with 6 samples.

Results

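The 9 genes described here write, erase or read methylation of DNA. They were chosen by name and were all found among the 43346 rows of the deposited count table. The writers are Dnmt1 and Dnmt3a (2 genes), the erasers are Tet1, Tet2 and Tet3 (3 genes), and the readers are Mbd1, Mbd2, Mbd3 and Mbd5 (4 genes). Their transcripts were counted in brain RNA of 6 adult male C57BL/6 mice, 3 Kdm6a deficient and 3 wild-type littermates. Deficient mice came from mating females with a loxP-flanked Kdm6a to males with Thy1-Cre, whose promoter drives Cre recombinase mainly in neurons. The labels do not say whether the wild-type mice carried Cre or the loxP sites, and they do not name the brain region. The libraries held 18542590 to 24531408 counts.

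Kdm6a, also called Utx, is a demethylase for lysine 27 of histone H3, whose methylation is a mark of silenced genes that is laid down separately from DNA methylation. In mammals DNA is methylated mostly on cytosines that precede a guanine (CpG), and neurons also gain methylation outside CpG after birth. Dnmt1 copies methylation to the new strand after replication, and Dnmt3a sets new methylation and makes most of the non-CpG methylation of neurons. The TET enzymes oxidise methylcytosine to hydroxymethylcytosine and beyond, which base excision repair can replace by plain cytosine, and the brain is rich in hydroxymethylcytosine. Proteins with a methyl-CpG-binding domain (MBD) read the mark, but not all of them bind it. Mbd1 and Mbd2 bind methylated DNA, while Mbd3, a subunit of the nucleosome remodelling and deacetylase complex NuRD, and Mbd5 bind it weakly or not at all.

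The sequences just before the listed starts of these genes range from very rich to poor in CpG, the letters on which the family acts. RefSeq start sites on GRCm38.p6 were given for 7 of the 9 genes, with 12 windows of 250 bases before a start. By a common definition of CpG richness, an observed to expected CpG ratio above 0.6 and a GC content above 50%, 7 of the 12 windows were CpG rich, against 30.8% of all 32851 windows in the table. The 4 windows below were picked from those that hold no untranslated sequence, to show the range from CpG dense to CpG poor, and each CpG is in capitals. Dnmt3a (chr12:3806730-3806979, plus strand) has 38 CpG, Tet2 (chr3:133544391-133544640, minus strand) has 51, Tet3 (chr6:83441679-83441928, minus strand) has 17, and the window before the most upstream Dnmt1 start (chr9:20959889-20960138, minus strand) has 2. The median of all windows was 6.
Dnmt3a: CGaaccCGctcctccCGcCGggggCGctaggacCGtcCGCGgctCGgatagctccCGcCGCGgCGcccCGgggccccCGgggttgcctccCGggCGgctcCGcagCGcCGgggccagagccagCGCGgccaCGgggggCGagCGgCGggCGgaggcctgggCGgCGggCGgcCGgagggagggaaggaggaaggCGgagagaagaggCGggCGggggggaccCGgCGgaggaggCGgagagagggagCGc
Tet2: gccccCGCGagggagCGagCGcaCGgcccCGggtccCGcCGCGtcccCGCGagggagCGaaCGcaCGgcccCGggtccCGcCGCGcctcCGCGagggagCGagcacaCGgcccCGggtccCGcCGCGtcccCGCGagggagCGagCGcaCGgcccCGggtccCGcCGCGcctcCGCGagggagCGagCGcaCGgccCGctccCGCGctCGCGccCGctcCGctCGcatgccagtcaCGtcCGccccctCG
Tet3: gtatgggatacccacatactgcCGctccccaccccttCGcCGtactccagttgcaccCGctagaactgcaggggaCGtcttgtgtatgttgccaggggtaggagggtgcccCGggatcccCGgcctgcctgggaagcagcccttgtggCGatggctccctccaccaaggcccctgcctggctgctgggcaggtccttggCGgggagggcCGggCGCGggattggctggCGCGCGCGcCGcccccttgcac
Dnmt1: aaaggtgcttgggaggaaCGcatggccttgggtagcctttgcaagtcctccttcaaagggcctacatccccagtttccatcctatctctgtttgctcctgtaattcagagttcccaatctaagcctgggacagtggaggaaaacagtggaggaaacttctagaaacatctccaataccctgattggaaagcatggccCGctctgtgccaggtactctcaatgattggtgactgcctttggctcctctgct
The Tet2 window had more CpG than 99.9% of all windows, and the Dnmt1 window shown had more than 18.8%. Dnmt1 also has a CpG-rich window further downstream (chr9:20952624-20952873), not shown because it meets untranslated sequence. It has 26 CpG, more than 90.4% of all windows, so Dnmt1 as a gene is not CpG poor at every start. The Dnmt3a, Tet2 and Tet3 windows lie inside the annotated span of their own gene, and that of Tet3 also meets an exon of B230319C09Rik. Dnmt1 and Dnmt3a each have 3 listed starts, and the counts are per gene, so starts and isoforms cannot be told apart. Methylation of these windows was not measured.

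None of the 9 genes differed between the genotypes by more than the test allows for the spread of the mice. By edgeR's quasi-likelihood test, 0 of 9 passed a false discovery rate (FDR) of 5%, and 0 had an unadjusted p under 0.05. Over all 15030 genes tested, 0.0466% passed 5% FDR and 5.86% had an unadjusted p under 0.05. Of the 9 log2 fold changes, 6 were negative, against 49.2% of all genes, and their median was -0.03 against 0.00 over all genes. The median size of the log2 fold change, sign aside, was 0.046 for the 9 genes and 0.063 for all genes. It was 0.045 for the 5068 genes whose mean level lay within the range of the 9. For each of the 9 genes the deficient and wild-type mice overlapped in CPM (the count relative to the scaled library total), whereas the groups did not overlap for 11.2% of all genes. DESeq2 and limma-voom also called 0 of the 9. The 95% intervals of the 9 differences reached from 17.0% below to 16.1% above the wild-type level. Within a group, the labels tell the mice apart only by number. The p-values set each difference against the spread of these 6 mice within their groups, which edgeR moderates over all genes tested.

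Kdm6a itself read 22.3, 25.2 and 25.2 CPM in the deficient mice, against 34.5, 35.0 and 34.3 CPM in their littermates (here and below in the order of mice 1, 2 and 3). Every deficient mouse was below every wild-type mouse, and transcript was left in all of them. Its log2 fold change was -0.51 (SE 0.07, edgeR adjusted p = 0.00780, and 0.05001 without wild-type mouse 2). In bulk tissue, fewer cells of a type and less RNA per cell cannot be told apart.

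**Figure D1:**
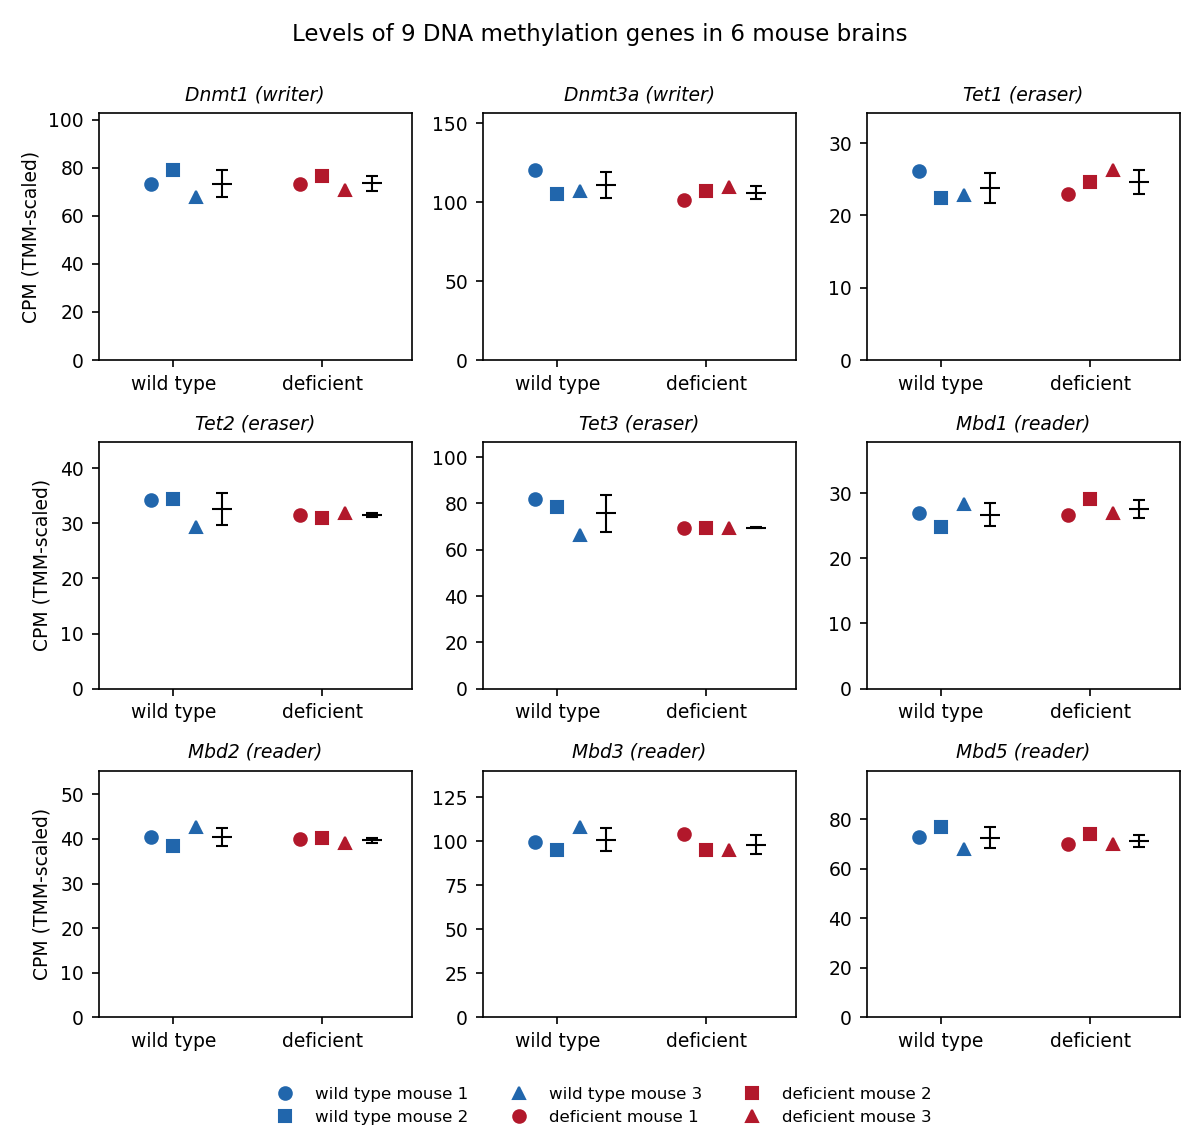
CPM of each of the 9 genes in each mouse (symbols, blue for wild type and red for Kdm6a deficient), with the mean and SD of each group in black (n = 3 mice each) and the vertical axis starting at 0. The groups overlap in every panel, and the 3 deficient mice lie within 69.2 to 69.6 CPM for Tet3 while the wild-type mice run from 66.6 to 82.0. Those deficient values lie closer together than counting error alone is expected to leave them.

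Dnmt1, the maintenance writer, had nearly the same mean in both groups. Its level read 73.1, 76.6 and 70.7 CPM in the deficient mice, against 73.2, 78.9 and 67.6 CPM in their littermates. The deficient mice all lay inside the wild-type range, and the log2 fold change was 0.01 (SE 0.06, 95% interval -0.12 to 0.13, edgeR adjusted p = 0.994). Dnmt3a, the de novo writer, read 101, 107 and 109 CPM in the deficient mice, against 120.2, 105 and 107 CPM in their littermates. Wild-type mouse 1 was the highest of the 6, and the other 5 mice were within 101 to 109 CPM. The log2 fold change of Dnmt3a was -0.07 (SE 0.06, 95% interval -0.19 to 0.06, edgeR adjusted p = 0.931), and it was -0.00 once wild-type mouse 1 was left out.

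Among the erasers, Tet3 had the smallest p of the 9 genes and did not pass the test. Tet3 read 69.2, 69.6 and 69.6 CPM in the deficient mice, against 82.0, 78.6 and 66.6 CPM in their littermates. Wild-type mice 1 and 2 were above every deficient mouse and wild-type mouse 3 was below all of them. The log2 fold change was -0.12 (SE 0.07, 95% interval -0.27 to 0.02, unadjusted p = 0.0907, edgeR adjusted p = 0.885). It was -0.21 without wild-type mouse 3 (edgeR unadjusted p = 0.00118, adjusted p = 0.231) and -0.06 without wild-type mouse 1 (edgeR adjusted p = 1.00). In the authors' deposited table, whose fold changes are wild type over deficient, Tet3 also had the smallest p-value of the 9, 0.112, with an adjusted p of 1.00.

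Tet2, which lacks the CXXC DNA-binding domain found in Tet1 and in a form of Tet3, read 31.5, 31.1 and 31.9 CPM in the deficient mice, against 34.2, 34.4 and 29.3 CPM in their littermates. As for Tet3, wild-type mice 1 and 2 were above the deficient mice and wild-type mouse 3 below them. The log2 fold change of Tet2 was -0.05 (SE 0.07, 95% interval -0.20 to 0.10, edgeR adjusted p = 0.957). Tet1 read 22.9, 24.7 and 26.2 CPM in the deficient mice, against 26.2, 22.4 and 22.8 CPM in their littermates. Both groups spanned nearly the same range, and the fold change on the log2 scale was 0.05 (SE 0.08, 95% interval -0.12 to 0.22, edgeR adjusted p = 0.967).

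No reader passed the test either, and their log2 fold changes lay between -0.04 and 0.05. Mbd3 read 104, 94.9 and 95.3 CPM in the deficient mice, against 99.8, 95.1 and 108 CPM in their littermates. The log2 fold change of Mbd3 was -0.04 (SE 0.06, 95% interval -0.17 to 0.08, edgeR adjusted p = 0.954). Mbd2, which takes the place of Mbd3 in a separate form of NuRD, read 40.0, 40.2 and 39.1 CPM in the deficient mice, against 40.4, 38.3 and 42.6 CPM in their littermates. For Mbd2 the deficient mice spanned a narrower range than the wild-type mice and lay inside it (log2 fold change -0.03, SE 0.06, 95% interval -0.15 to 0.10, edgeR adjusted p = 0.976). Mbd1, which also binds unmethylated CpG through a CXXC domain, read 26.6, 29.1 and 27.0 CPM in the deficient mice, against 26.9, 24.8 and 28.4 CPM in their littermates (log2 fold change 0.05, SE 0.07, 95% interval -0.10 to 0.19, edgeR adjusted p = 0.965). Mbd5, whose loss of 1 copy causes a neurodevelopmental disorder in humans, read 69.9, 74.2 and 70.1 CPM in the deficient mice, against 73.0, 76.7 and 68.2 CPM in their littermates. Deficient mice again lay inside the wild-type range of Mbd5 (log2 fold change -0.02, SE 0.05, 95% interval -0.14 to 0.09, edgeR adjusted p = 0.976).

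**Figure D2:**
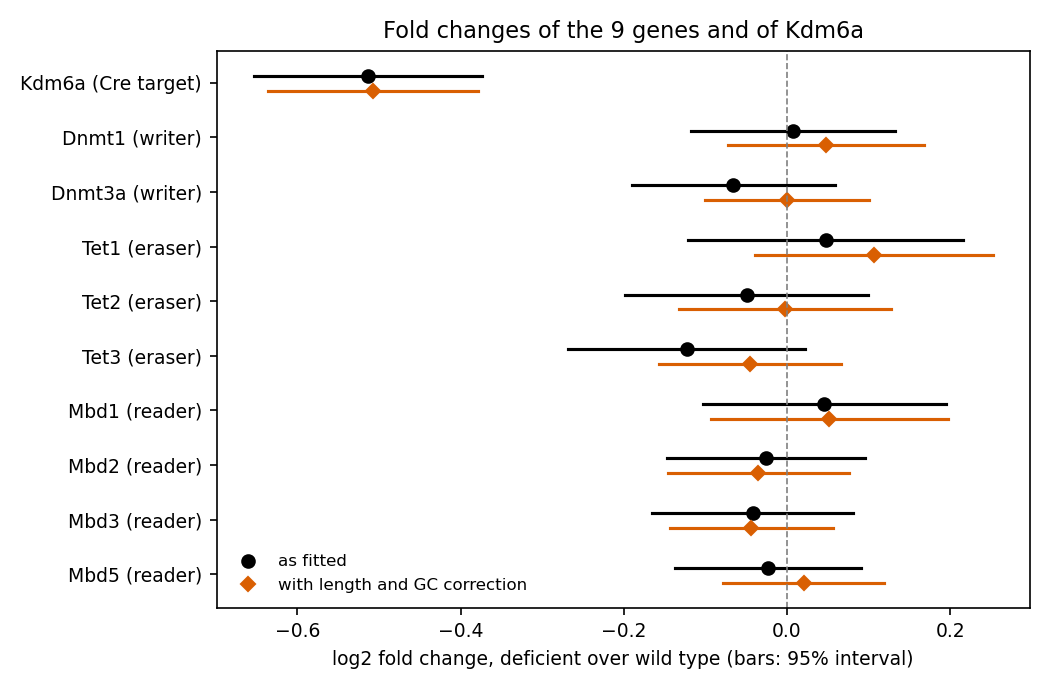
Log2 fold change, deficient over wild type, of the 9 genes and of Kdm6a (points) with its 95% interval (bars), as fitted by edgeR (black circles) and after correcting for the length and GC content of transcripts (orange diamonds). All 9 intervals cross 0 in both fits, and that of Kdm6a runs from -0.65 to -0.37 as fitted.

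Divided by the length of the longest protein-coding transcript, the 9 genes covered a wide range of levels, and the order was led by the readers Mbd3 and Mbd2. In wild-type mice Mbd3 stood at 60.7 ± 3.90 CPM per kb (SD, n = 3) and Mbd2 at 20.7 ± 1.09. The writers came next, Dnmt1 at 12.5 ± 0.960 and Dnmt3a at 11.4 ± 0.844 CPM per kb. Below them were Mbd5 at 8.51 ± 0.500, Tet3 at 6.94 ± 0.743 and Mbd1 at 6.81 ± 0.456 CPM per kb. Tet2 at 3.56 ± 0.318 and Tet1 at 1.66 ± 0.145 CPM per kb were the lowest. Neighbours in this order did not overlap over the 6 mice except for Dnmt1 with Dnmt3a, where Dnmt1 was still higher within each of the 6 mice, and for Tet3 with Mbd1, where Tet3 was higher in 2 of 6. With the merged exons of all isoforms as the length, Mbd5 moved below Mbd1, and the neighbours that overlapped were Tet3 with Mbd1 and Mbd1 with Mbd5. Deficient mice had 59.0 ± 3.17 CPM per kb of Mbd3 and 6.37 ± 0.0197 of Tet3.

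Shares within each role were compared next. An exact test of 3 mice against 3 cannot give a p below 0.1, so none of the 3 tests could pass 0.05. Of the counts of the 3 erasers, Tet3 took 56.0%, 55.5% and 54.5% in the deficient mice, against 57.6%, 58.0% and 56.1% in their littermates. Every deficient mouse was below every wild-type mouse, by the smallest margin between deficient mouse 1 and wild-type mouse 3. The means were 55.3 ± 0.774% and 57.2 ± 0.992% (SD, n = 3 each), and an exact two-sided permutation test over mice gave p = 0.1, the smallest that 3 against 3 allows (0.3 adjusted over 3 shares). The 95% Wilson intervals of the single shares overlapped, for example 54.1% to 57.8% in deficient mouse 1 and 56.1% to 59.9% in wild-type mouse 2. Dnmt3a took 59.0 ± 1.48% of the writers' counts in deficient and 60.2 ± 2.64% in wild-type mice (SD, n = 3 each, exact permutation p = 0.6, adjusted 0.7). Mbd3 took 41.4 ± 1.76% of the readers' counts in deficient and 41.9 ± 1.63% in wild-type mice (SD, n = 3 each, exact permutation p = 0.7, adjusted 0.7). Wilson intervals cover counting error only.

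The wild-type mice spread more than the deficient mice for all 9 genes. The SD of log2 CPM had a median of 0.10 over the 9 genes in wild-type mice and 0.06 in deficient mice. Tet3 was the extreme, with an SD of 0.16 in wild-type and 0.0045 in deficient mice. The deficient mice had 1551, 1714 and 1421 counts of Tet3, and counting error alone is expected to spread such counts more widely than 0.0045. The same holds for Tet2 and Mbd2, each with an SD of 0.020 in deficient mice. Such closeness is therefore not read as a trait of the deficient mice. An SD of 3 values is itself imprecise, and the gap between the groups for Tet3 was smaller after the correction described below. Among all genes tested the wild-type SD was the larger for 51.3%, and among the 901 genes at similar levels with transcripts of at least the length of Dnmt1 it was the larger for 60.9%. The 9 genes are not independent of each other, since they share the same 6 libraries, and no test of this spread was made.

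Over all genes, the deviations of single mice varied with transcript length, and the 9 genes went along with this in some mice and not in others. The transcripts of 6 of the 9 genes (Dnmt1, Dnmt3a, Tet1, Tet2, Tet3 and Mbd5) were longer than 5000 bases, and those of Mbd1, Mbd2 and Mbd3 were shorter. In wild-type mouse 1 all 6 long genes were above the wild-type mean (mean deviation 0.08 log2 CPM), and in wild-type mouse 3 none was (-0.11), while all 3 short genes were above it there (0.09). In wild-type mouse 2 the long genes had a mean deviation of 0.03 and the short genes one of -0.09, but Tet1 (-0.08) and Dnmt3a (-0.07), both long, were below the wild-type mean there. The long genes had mean deviations of -0.07, -0.01 and -0.02 in the deficient mice, and the short genes had 0.01, 0.01 and -0.04. In deficient mouse 3 the mean of the short genes was thus below that of the long ones, the reverse of the order among all genes in that mouse. However, only 1 of the 6 long genes was above the wild-type mean there, namely Tet1 (0.145), which raised the mean of the long genes. Among all genes with at least 15 CPM, the 20% with the longest transcripts had median deviations of 0.04, 0.02 and -0.06 in the wild-type mice, against -0.07, -0.02 and -0.03 in the deficient mice. The 20% with the shortest transcripts went the other way, at -0.02, -0.01 and 0.04 in the wild-type mice, against 0.07, 0.02 and 0.02 in the deficient mice.

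Correcting for the length and GC content of transcripts, a step chosen after these values were seen, left 0 of the 9 genes called, while the calls over all genes went from 7 to 5. After it the log2 fold change of Tet3 was -0.05 (SE 0.05, edgeR adjusted p = 0.993), that of Dnmt3a -0.00 (SE 0.05, edgeR adjusted p = 1.00) and that of Tet1 0.11 (SE 0.07, edgeR adjusted p = 0.969). The SD of the corrected values was larger in wild-type than in deficient mice for 8 of the 9 genes. For Tet3 it was 0.096 in wild-type and 0.043 in deficient mice, and for Mbd3, the exception, 0.050 and 0.055. The share over all genes was not computed for the corrected values, so the count of 8 has no background to be read against. By Euclidean distance of these log2 deviations over the 6 mice, before the correction, Dnmt1 and Mbd5 were each other's nearest (0.0756), as were Mbd2 and Mbd3 (0.110). The nearest to Tet3 was Tet2 (0.139), the nearest to Tet2 was Mbd5 (0.136) and the nearest to Mbd1 was Mbd2 (0.155). Dnmt3a was nearest to Tet2 (0.206) and Tet1 to Dnmt3a (0.209).

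**Figure D3:**
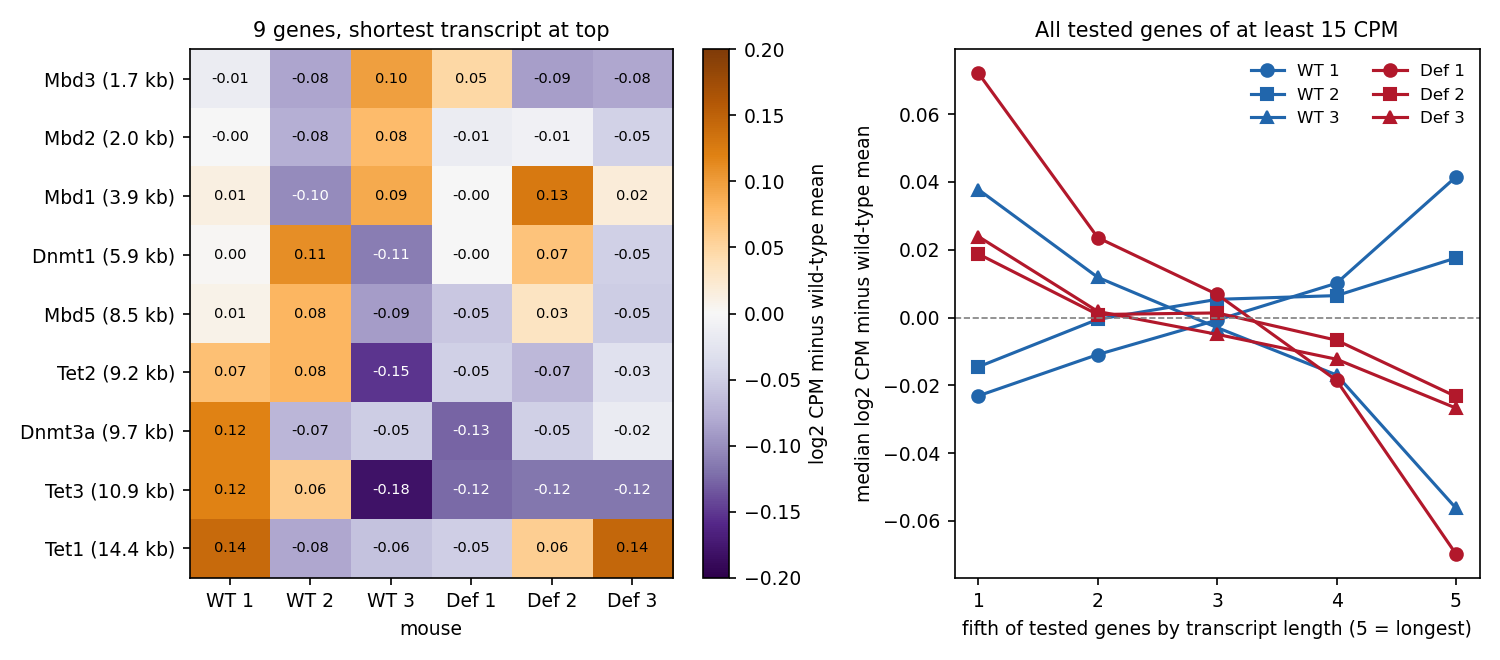
Left, log2 CPM of each gene in each mouse minus the wild-type mean of that gene, with genes ordered by transcript length and WT and Def for wild-type and deficient mice. Right, the median of the same deviation over all tested genes of at least 15 CPM in 5 equal bins of transcript length, 1 line per mouse. Wild-type mouse 3 is low for the 6 long genes (Tet3 at -0.18) and high for the 3 short ones (Mbd3 at 0.10), and wild-type mouse 1 is high for Tet1, Tet3 and Dnmt3a (0.14, 0.12 and 0.12).

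Genes that work with these enzymes and readers were tested in the same fit. Of 72 listed genes in 6 lists, 66 were measured, 0 passed 5% FDR and 0 had an unadjusted p under 0.05 (edgeR). The groups did not overlap for 8 of the 66, or 12.1%, near the 11.2% of all genes. The partners of the writers had 6 positive and 2 negative log2 fold changes among 8 measured (median 0.07). Uhrf2, a relative of Uhrf1, was at 52.8 ± 0.780 CPM in deficient and 56.3 ± 2.78 in wild-type mice (SD, n = 3 each), without overlap. Its log2 fold change was -0.09 (SE 0.05, edgeR adjusted p = 0.887). Usp7, a deubiquitinase that stabilises Dnmt1 and Uhrf1, stood at 0.06 (SE 0.05) and Cdca7, which activates the remodeller Hells, at 0.16 (SE 0.16) on the log2 scale. Uhrf1, which brings Dnmt1 to freshly replicated DNA, was named after its values were seen. It stood at 0.272 ± 0.0475 CPM per kb of the longest transcript in wild-type mice (SD, n = 3) against 12.5 for Dnmt1 and 15.9 for Uhrf2. With merged exons as the length, Uhrf1 stood at 0.229, Dnmt1 at 9.93 and Uhrf2 at 6.55, so Uhrf2 was then below Dnmt1. Uhrf1 shares 98.3% of its aligned sequence with Gm5648, so its value is uncertain. Markers of dividing cells summed to 31.2 to 33.6 CPM in wild-type mice.

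Partners of the TET enzymes and genes of base excision repair had 8 positive and 8 negative log2 fold changes (16 measured, median 0.01). Neil1, a DNA glycosylase, had 6.77 ± 0.244 CPM in deficient and 5.72 ± 0.728 CPM in wild-type mice (SD, n = 3 each), each deficient mouse above each wild-type mouse (log2 fold change 0.24, SE 0.12, edgeR adjusted p = 0.861). Gadd45b, an activity-induced gene linked to active demethylation in neurons, was lower without overlap at -0.17 (SE 0.09, edgeR adjusted p = 0.885). Smug1, a uracil glycosylase, stood at 0.11 (SE 0.08) and Parp1, which binds DNA breaks, at 0.07 (SE 0.05). Of 10 other readers 7 had negative log2 fold changes (median -0.03). Among them Zfp57, which guards methylated imprints, stood at 0.21 (SE 0.14), Baz2a, of the nucleolar remodelling complex, at -0.05 (SE 0.05) and Setdb1, a histone H3 lysine 9 methyltransferase, at -0.04 (SE 0.05).

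NuRD subunits, the complex of Mbd2 and Mbd3, had 7 negative and 6 positive log2 fold changes (13 measured, median -0.02). Rbbp4, a histone-binding subunit, stood at 114 ± 2.12 CPM in deficient and 106 ± 4.29 CPM in wild-type mice without overlap (SD, n = 3 each, log2 fold change 0.10, SE 0.05, edgeR adjusted p = 0.850). Some of its exons overlap exons of genes on the opposite strand, as do some of Setdb1, Kdm1b, Asxl1, Asxl2 and Shmt2, and with the strand setting unknown reads of such partners may be mixed. Usp7, Baz2a and Setdb1 also share near-identical stretches with other genes, so their values are uncertain to that extent. The helicase genes Chd4 and Chd3 stood at -0.10 (SE 0.05) and -0.06 (SE 0.05), and the deacetylase gene Hdac1, which has a copy 99.4% identical, at -0.29 (SE 0.17). PR-DUB is the deubiquitinase complex of Bap1, to which human MBD5 binds, and its genes had 7 negative and 1 positive log2 fold change (8 measured, median -0.05). Its named genes were the demethylase gene Kdm1b at -0.13 (SE 0.08), without overlap between the groups, the forkhead factor gene Foxk1 at -0.06 (SE 0.05), and Asxl1 and Asxl2, cofactors of Bap1, at -0.07 (SE 0.06) and -0.05 (SE 0.06). The list of genes around the methyl donor cycle, whose S-adenosylmethionine the writers use, had 6 positive and 5 negative values (11 measured, median 0.01). It includes Shmt2 at 0.08 (SE 0.08), Mtrr at -0.12 (SE 0.11), Mat2b at 0.04 (SE 0.05) and Nnmt at 0.66 (SE 0.48) from 0.341 CPM in wild-type mice.

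**Figure D4:**
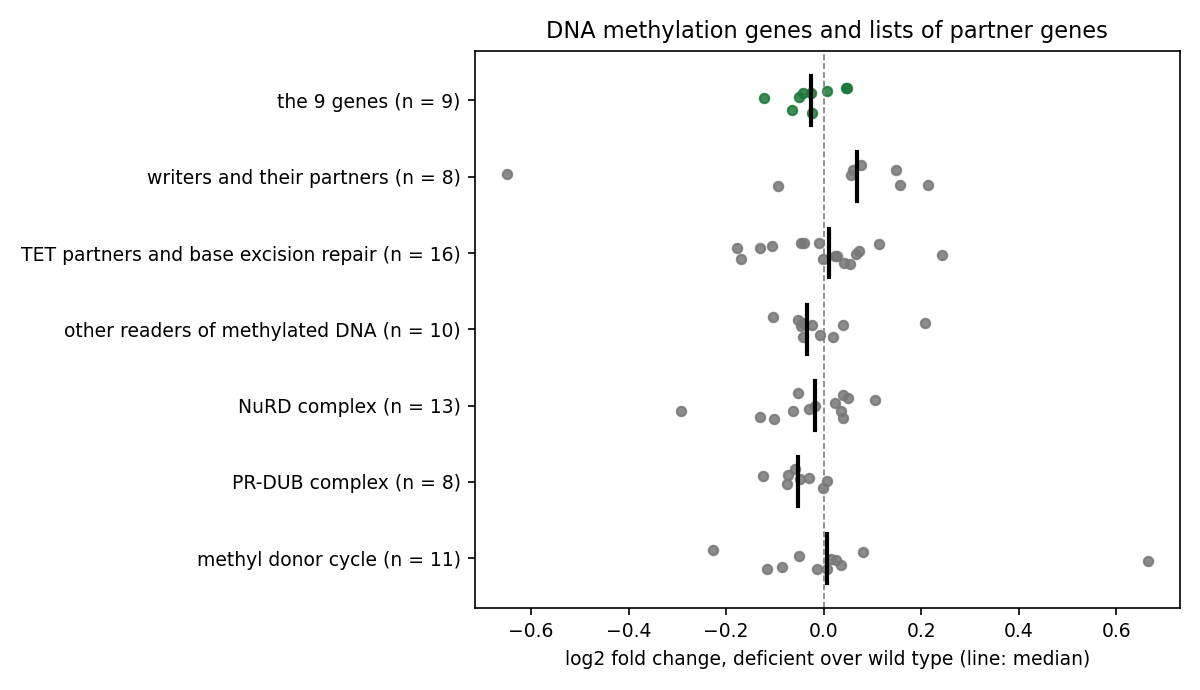
Log2 fold change, deficient over wild type, of the 9 genes (green) and of the measured members of 6 partner lists (grey), 1 point per gene, with the median of each list as a black line. The medians lie between -0.05 and 0.07, the median of all tested genes is 0.00, and no gene shown passed 5% FDR.

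The summed levels of 10 lists of cell type markers overlapped between the groups in every list, though single markers of some lists leaned one way. Neuron markers (12 of 12 measured) summed to 9690 to 10101 CPM in deficient and 9765 to 9908 CPM in wild-type mice. Astrocyte markers (8 of 8) summed to 5641 to 5924 against 5551 to 5969 CPM, and oligodendrocyte markers (8 of 8) to 8016 to 8902 against 8435 to 9454 CPM. Blood markers had positive log2 fold changes for 7 of 7 (median 0.31), with an unadjusted edgeR p under 0.05 for 2, and summed to 63.6 to 86.3 against 52.5 to 67.0 CPM. Cerebellum markers had positive values for 7 of 8 (median 0.09), with an unadjusted p under 0.05 for 3, and summed to 909 to 1134 against 866 to 989 CPM. Microglia markers had negative values for 7 of 8 (median -0.07), with an unadjusted p under 0.05 for 1, and summed to 258 to 289.7 against 275 to 299 CPM. Choroid plexus markers were negative for 5 of 6 (median -0.16) and oligodendrocyte markers for 6 of 8 (median -0.07), with 0 under 0.05 in either list. The part of these lists in the values of the 9 genes was not tested. No marker passed 5% FDR, and none of the listed markers was at 0 in all 6 libraries.

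The 9 genes lie on GRCm38 (GENCODE release M21) as follows, each a protein-coding gene. Dnmt1 lies on chromosome 9 (20907209 to 20959888, minus strand), Dnmt3a on chromosome 12 (3806007 to 3914443, plus), and Tet1 on chromosome 10 (62804570 to 62908996, minus). Tet2 lies on chromosome 3 (133463679 to 133545139, minus) and Tet3 on chromosome 6 (83362373 to 83459084, minus). Mbd1 (74267605 to 74282732, plus) and Mbd2 (70568189 to 70626131, plus) lie on chromosome 18, Mbd3 on chromosome 10 (80392539 to 80399550, minus) and Mbd5 on chromosome 2 (48949508 to 49325405, plus). Mbd5 spans 375.9 kb and Mbd3 spans 7.01 kb. Exons of genes on the opposite strand cover 0.799% of the exons of Dnmt3a, 0.255% of those of Tet2 and 0.693% of those of Mbd5, and none of the others. No other gene's transcripts matched any of the 9 with 95% identity or more over 200 bases.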

How the data were processed

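RNA from brains of 6 mice went through a Qiagen spin column and an Illumina TruSeq library kit, per the labels' protocols. The authors deposited raw counts per gene, 1 column per mouse, all whole numbers. The same table holds, per the file headers, results of the authors' DESeq2 run: a mean normalised signal, a log2 fold change (wild type over deficient) with its standard error, a test score, and a p-value with its adjusted value. The submitters' processing notes name GRCm38 and DESeq2. Aligner, counting tool, annotation and strandedness were not given in the sources used here. Rows with a number as symbol (27, with 0.350% of the counts) stayed in the totals.

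Counts were tested over all 15030 genes that passed the default expression filter, with edgeR 4.0.16 (R 4.3.3), TMM scaling and the robust quasi-likelihood F test, two-sided, adjusted by Benjamini and Hochberg at 5%. CPM uses TMM-scaled totals. SE was taken as |log2 fold change| over the square root of F, and intervals are 95%. Log2 CPM has a prior count of 2. Lengths come from GENCODE M21, copies were searched with BLAST 2.17.0, and promoters come from RefSeq. The code was tested on simulated counts. The correction for transcript length and GC content fits splines with 5 degrees of freedom per library, and 95.7% of tested genes had a length. Alternatives were RLE factors, no filter, limma-voom (limma 3.58.1), DESeq2 1.42.0, a filter at a mean of 1 CPM, the mouse number as a block, and each mouse left out.

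The members and lists were chosen with earlier results of these data known. Named genes are Kdm6a, the 9 genes and up to 4 genes with the smallest p of each partner list, though a few of these are not reported here; the counts include every one.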

Additional observations from a re-analysis of the deposited data

How the results depend on the processing

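None of the 9 genes passed 5% FDR in any of 13 other settings, with a smallest adjusted p of 0.231 (Tet3 when wild-type mouse 3 was left out). In that setting 1 of the 9 had an unadjusted p under 0.05, and in the other settings 0 did. The number of genes called was 7. It became 25 when low counts were not filtered, 20 under DESeq2 and 15 with the mouse number as a replicate block. It was 5 with the length and GC correction. Dropping 1 mouse at a time gave 3 to 17 calls, namely 12 (deficient mouse 1 dropped), 15 (deficient mouse 3), 3 (wild-type mouse 2) and 17 (wild-type mouse 3). The cause was not tested. Some signs near 0 turned when 1 mouse was dropped, with log2 fold changes of -0.048 to 0.059 for Dnmt1, -0.0043 to 0.092 for Mbd1, -0.064 to 0.013 for Mbd2, -0.089 to 0.0084 for Mbd3 and -0.068 to 0.013 for Mbd5. Mbd5 also turned with the length and GC correction, to 0.020. Differences in share, in percentage points, ranged over -1.42 to 0.399 for Mbd3, -2.48 to -1.49 for Tet3 and -2.65 to -0.174 for Dnmt3a. The deviations of same-numbered mice correlated at -0.00063, 0.081 and 0.048. Deficient mice 2 and 3 and wild-type mouse 2 correlated best with their own number, and the other mice did not. With 3 mice a group, each centred on its group mean, these values cannot tell whether the numbers pair the mice. The replicate block changed no call among the 9 genes (Tet3 -0.12, adjusted p = 0.823). With 3 mice a group, the 95% interval of each gene gives the differences compatible with these data at that level.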
